A study of Arabidopsis thaliana with 6 samples.

Results

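Transcript levels of 6 regulators of flowering time that are not MADS-box proteins, FD, SMZ, SNZ, LD, FY and GI, were examined in the early-flowering mutant esd7-1 and its wild type. The genes were chosen by name, and each was represented by the probe set annotated to that gene alone. The annotation used here named 1 such probe set per gene. All 6 were found, among 13355 genes with such a probe set. Arabidopsis thaliana esd7-1 seedlings were compared with seedlings of the accession Landsberg erecta (Ler), both 14 days old, grown in short days at the same temperature in pots, and collected 8 h after dawn. Each genotype had 3 Affymetrix arrays, and each array carried total RNA from a separate pool of plants. The ESD7 gene encodes the catalytic subunit of the leading-strand replicative DNA polymerase, so the allele concerns an enzyme of every dividing cell. Landsberg erecta, as is known of this accession, carries the erecta mutation and a weak allele of the repressor FLC, which both genotypes would share. ESD7 had no named probe set here, so the mutant label was not checked against its transcript.

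Flowering in Arabidopsis is timed by several inputs that meet on the florigen gene FT and on the meristem identity genes. In the photoperiod pathway GIGANTEA (GI), a clock-controlled protein, acts with FKF1 to remove repressors of CO, which activates FT in leaves. FT protein moves to the shoot apex and works there with the bZIP factor FD, while the AP2-type factors SCHLAFMÜTZE (SMZ) and SCHNARCHZAPFEN (SNZ), both targets of miR172, repress FT. The autonomous pathway genes LUMINIDEPENDENS (LD), which encodes a homeodomain protein, and FY, which encodes a WD-repeat factor of mRNA 3′ end processing, lower the expression of FLC. Of these partner genes FT, CO, FKF1 and FLC were not analysed here, as none had a probe set annotated to it alone.

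None of the 6 genes differed between esd7-1 and Ler beyond the spread of the arrays in the limma test, as was the case for every other probe set. LD read lowest in the mutant relative to Ler, by a log2 difference of -0.40, and SMZ differed by -0.24. FD and FY read 0.16 and 0.15 higher, and SNZ and GI differed by 0.01 and -0.01. The adjusted p of the 6 lay between 0.846 and 0.987. Of 22746 probe sets 0 passed at an adjusted p of 0.05, which is 0% of the table, and 1315, or 5.78%, had an unadjusted p under 0.05. None of the 6 genes was among the latter. In all 6 genes the values of esd7-1 and Ler overlapped or met. Most probe sets did the same, and 11.3% of all had groups that did not overlap. The 6 genes had 3 differences above and 3 below 0, with a median of 0, against a median of 0.01 over all probe sets. Their median absolute difference was 0.158, against 0.127 over all probe sets.

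**Figure D1:**
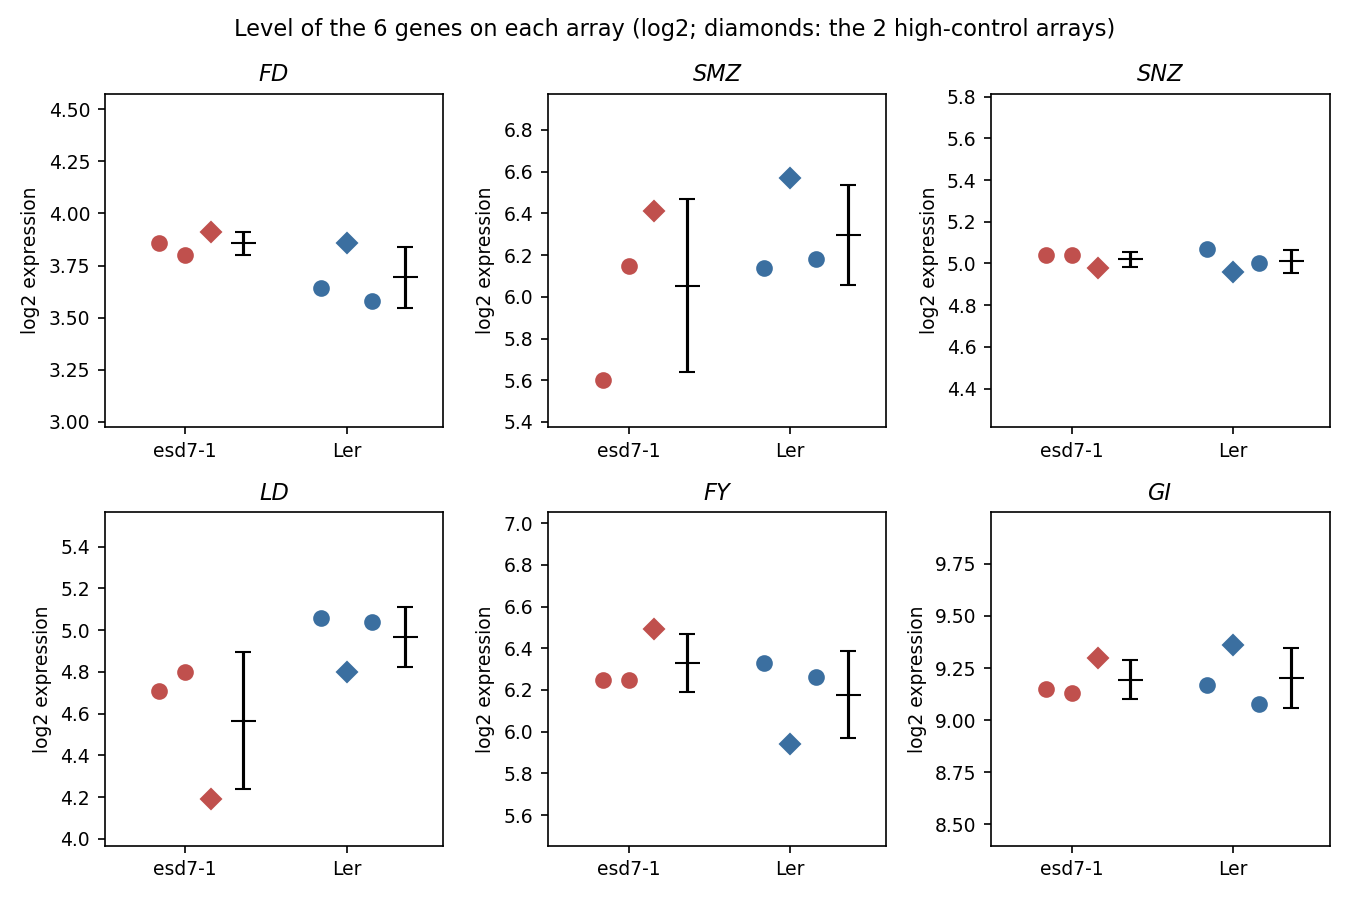
Level of each gene on each array (log2 expression, vertical axes of equal span) for the 3 esd7-1 and 3 Ler arrays. Diamonds mark the 2 high-control arrays (replicate 3 of esd7-1, replicate 2 of Ler), and bars show the mean with the SD (n = 3). SMZ and LD spread over 0.97 and 0.87, and SNZ over 0.11.

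1 array of each genotype, replicate 3 of esd7-1 and replicate 2 of Ler, read high for the bacterial poly-A control RNAs, which hold no plant transcript. The controls averaged 6.18 and 6.84 on these high-control arrays and between 5.47 and 5.6 on the other 4. Leaf photosynthesis markers were bright on every array, with a mean of the 3 measured of 6 between 13.1 and 13.4. They too read highest on the high-control arrays, at 13.31 and 13.38, against 13.09 to 13.2 on the other 4. The 3 measured of 4 root markers averaged 7.35 and 7.0 on those 2 arrays and 6.24 to 6.52 on the others. By genotype the root markers ranged from 6.24 to 7.35 in esd7-1 and from 6.29 to 7.0 in Ler. A control for the large ribosomal RNA read 8.99 and 9.66 on the first replicates of the mutant and of Ler, and 5.77 or less elsewhere. No floral organ marker had a named probe set. In whole seedlings, fewer cells of a type and less RNA per cell cannot be told apart.

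GI (AT1G22770) gave a bright signal, at percentile 94.1 of mean level, and its 6 values spanned 0.28. Its log2 level was 9.15, 9.13 and 9.30 in esd7-1 replicates 1 to 3, and 9.17, 9.36 and 9.08 in the Ler arrays. The 3 mutant values lay inside the Ler range, and in both genotypes the high-control array read highest. The mutant mean was 9.19 ± 0.09 and the Ler mean 9.2 ± 0.14 (SD, n = 3). The difference was -0.01 with a standard error of 0.11 in limma, and its 95% interval ran from -0.28 to 0.26, or from 0.821 to 1.2 times the Ler level. GI transcript is known to oscillate daily, and all arrays come from 1 time of day, so a shift in phase at other times was not measured here. GI was 0.20 higher on the high-control arrays than on the other 4. This exceeded its genotype difference, whose sign turned under 6 of 15 other settings, second quantile normalization among them. The 15 include settings that cannot change the difference, such as a term for the high-control arrays.

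FD (AT4G35900), the bZIP partner of FT at the shoot apex, read dim, at percentile 22.9 of mean level. It read 3.86, 3.80 and 3.91 in esd7-1, and 3.64, 3.86 and 3.58 in Ler. The 2 lower Ler arrays lay below every mutant value, and Ler replicate 2, the high-control array, equalled esd7-1 replicate 1. The mutant mean was 3.86 ± 0.06 and the Ler mean 3.69 ± 0.15 (SD, n = 3), a difference of 0.16 with an interval from -0.10 to 0.43 in limma. Without Ler replicate 2 the difference was 0.25, while the high-control pair alone gave 0.05 and the remaining 4 arrays 0.22. At such a dim signal RMA, the authors' summary method, compresses differences, and a whole seedling holds little apex tissue.

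The other bZIP genes give a setting for FD. They were taken as the genes with bZIP in their symbol or a synonym, so bZIP genes named otherwise are left out. Among the 21 such genes other than FD with a named probe set, 10 read higher and 11 lower in esd7-1, and 0 passed. Their differences ran from -0.29 to 0.17 with a median of -0.01. The difference of FD, 0.163, thus lay inside the range of these genes but close to its upper end of 0.167. That end was AT2G13150, a dim gene at percentile 9.07 of mean level. The median absolute difference of the 21 genes was 0.09. BZIP28 and BZIP60, which act in the unfolded protein response, differed by -0.19 and -0.07. EEL, a bZIP factor of late seed development, differed by 0.15 and BZIP24 by -0.06, both dim at percentiles 19.0 and 19.8. Whether dim bZIP genes differ from bright ones was not tested.

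The AP2-type repressors SMZ (AT3G54990) and SNZ (AT2G39250) varied to very unequal degrees. SMZ read 5.6, 6.15 and 6.41 in esd7-1, and 6.14, 6.57 and 6.18 in Ler. In both genotypes the high-control array read highest, and esd7-1 replicate 1 alone lay below all Ler values. The mutant mean was 6.05 ± 0.41 and the Ler mean 6.30 ± 0.24 (SD, n = 3). The difference of -0.24 had an interval from -0.79 to 0.31 in limma, or 0.577 to 1.24 times the Ler level. Without esd7-1 replicate 1 the difference was -0.02, but a high-control array then weighs more in the mutant mean than in the Ler mean. The high-control pair, which does not hold replicate 1, gave -0.16. On the high-control arrays SMZ was 0.47 higher than on the other 4, and 14.1% of all probe sets differed more than SMZ between those sets of arrays. The leaf and root markers were also higher there, and their part in the level of SMZ was not tested.

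SNZ read 5.04, 5.04 and 4.98 in esd7-1 and 5.07, 4.96 and 5.0 in Ler. All 6 values fell within 0.11, and the groups overlapped fully. The means were 5.02 ± 0.03 and 5.01 ± 0.06 (SD, n = 3). The limma interval of the difference of 0.01 ran from -0.21 to 0.23, which is 0.866 to 1.17 times the Ler level. The residual SD of SNZ, 0.05, lay at percentile 2.36 of all probe sets, and that of SMZ, 0.34, at percentile 83.9. The SNZ signal lay at percentile 52.3 of mean level, near the middle of the array, so whether its transcript was detected above background was not tested.

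**Figure D2:**
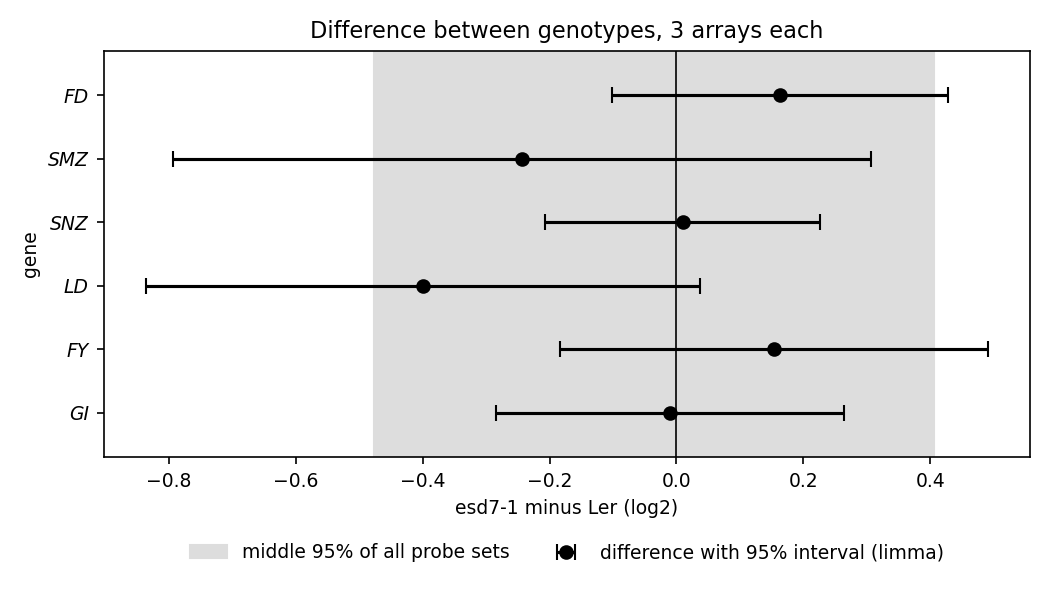
Difference between esd7-1 and Ler for each gene (log2, horizontal axis) with its 95% interval from limma, 3 arrays per genotype. Grey marks the range of the middle 95% of all probe sets, -0.48 to 0.41, and every gene's point lies inside it with an interval that includes 0.

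LD (AT4G02560), the homeodomain gene of the autonomous pathway, had the largest difference of the 6. Its signal lay at percentile 48.5 of mean level, below that of SNZ, and its detection above background was not tested. Its level was 4.71, 4.80 and 4.19 in esd7-1, and 5.06, 4.80 and 5.04 in Ler. The lowest Ler value, on replicate 2, equalled the highest mutant value, on replicate 2, and in each genotype the high-control array read lowest. The mutant mean was 4.57 ± 0.33 and the Ler mean 4.97 ± 0.14 (SD, n = 3). The difference of -0.40 had a standard error of 0.18 and an interval from -0.84 to 0.04 in limma, or 0.560 to 1.03 times the Ler level. Its unadjusted p of 0.0668 ranked 1776 among 22746 probe sets, and its adjusted p was 0.846. An absolute difference at least as large was seen in 7.06% of probe sets.

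The lower LD reading in esd7-1 was present in both sets of arrays. The high-control pair gave a difference of -0.61 and the remaining 4 arrays -0.30. Apart from genotype, LD differed by -0.41 from the other 4 arrays on the high-control ones, in the direction opposite to GI, SMZ and the leaf and root markers. The part of these markers in the level of LD was not tested. With a term for the high-control arrays in limma the standard error fell to 0.11 and the unadjusted p was 0.00800. Of all probe sets 11.1% had an unadjusted p under 0.05 in that fit and 0.0176% passed after adjustment, while the adjusted p of LD was 0.284. Without esd7-1 replicate 3 the difference was -0.21, and without esd7-1 replicate 2 it was -0.52.

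FY (AT5G13480), whose protein acts with FCA in 3′ end choice, read 6.25, 6.25 and 6.49 in esd7-1, and 6.33, 5.94 and 6.26 in Ler. Both extremes were the high-control arrays, with esd7-1 replicate 3 above all others and Ler replicate 2 below all others. The remaining 4 values lay between 6.25 and 6.33. The means were 6.33 ± 0.14 and 6.18 ± 0.21 (SD, n = 3), a difference of 0.15 with an interval from -0.18 to 0.49 in limma. The high-control pair gave a difference of 0.55 for FY, and the remaining 4 arrays gave -0.05. The positive difference of FY therefore came from 1 array of each genotype, and whether the 2 sets of arrays differ in it was not tested.

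**Figure D3:**
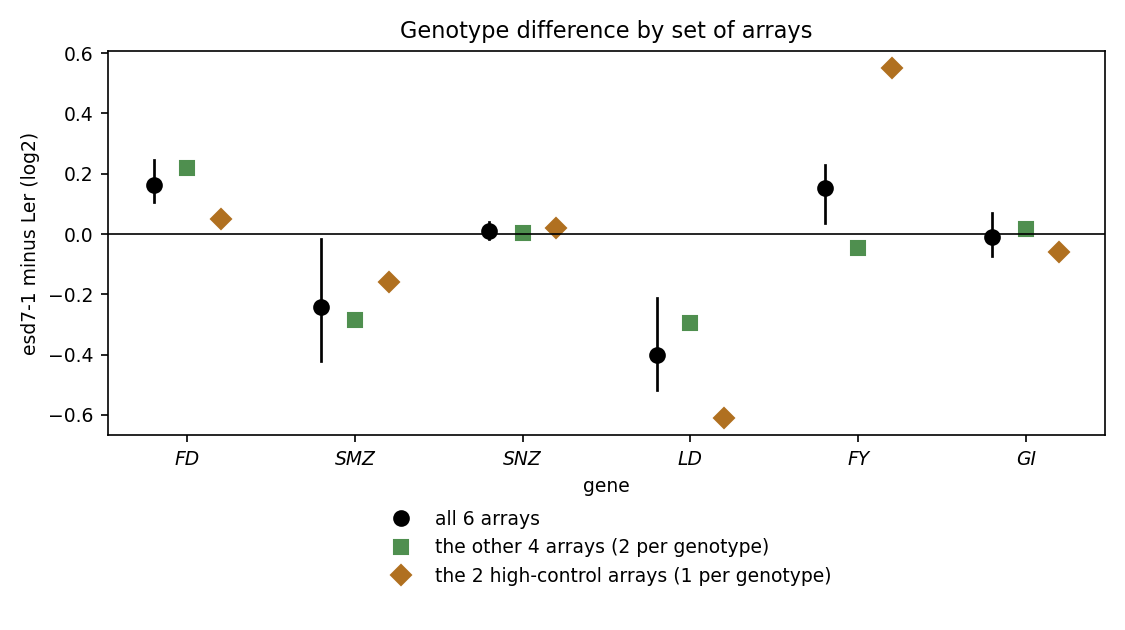
Difference between esd7-1 and Ler (log2, vertical axis) over all 6 arrays, over the 2 high-control arrays and over the remaining 4. Vertical lines show the range when each array is left out in turn. FY turns from 0.55 in the high-control pair to -0.05 in the remaining 4. LD and SMZ stay below 0 in all 3 sets, and FD and SNZ above 0. The value over all 6 arrays combines the pair, which is 1 array per genotype, with the remaining 4.

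The size of the shift of the high-control arrays from the other 4 exceeded the genotype difference for SMZ, SNZ and GI. It was larger by a narrow margin for FD (0.165 against 0.163) and LD (-0.4075 against -0.40), and smaller for FY. The shift was thus the larger in 5 of the 6 genes, and in 58.8% of all probe sets. The shift was 0.17 for FD, 0.47 for SMZ, -0.07 for SNZ, -0.41 for LD, -0.06 for FY and 0.20 for GI. Over all probe sets the middle 95% of such shifts ran from -0.74 to 0.79. Between the replicate 1 arrays and the others, which include both high-control arrays, SMZ differed by -0.46 and LD by 0.18. The other 4 genes differed by 0.06 or less in size. For LD the replicate 1 values, 4.71 and 5.06, lay near 4.80 and 5.04 on the other arrays without high controls. Those of SMZ were 5.6 and 6.14, against 6.15 and 6.18.

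Genes whose pattern over the 6 arrays was most like each member were found by Pearson r among 6593 genes that varied by at least 0.5. The 6 arrays share the shift described above, and with 6 points many genes reach a high r, so the values are descriptions. LD was most like AT4G12490, with r = 0.997, and AT1G32220, with r = 0.993. AT4G12490 read 1.29 lower and AT1G32220 0.52 lower in esd7-1, and neither passed. GI was most like the pseudogene AT3G29210 and WLIM2b, at 0.990 and 0.988. SMZ was most like ccb203, a gene of cytochrome c biogenesis in the mitochondrion, at 0.9995, and AT4G36750, at 0.989. FD was closest to GTR2, a glucosinolate transporter, at 0.984, and then to AT3G26510 at 0.966. FY was most like AT2G22610 and AT2G14520, at 0.995 and 0.98. SNZ, which hardly varied, had AT5G65750 at 0.973 and AT3G61610 at 0.96. LD had 98 genes with r above 0.95 and GI had 74, against 21 for SMZ, 12 for FY, 4 for FD and 3 for SNZ.

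The members did not move as one group. Over the 6 arrays FD and LD correlated at -0.81, SMZ and SNZ at -0.68, and GI with FD and SMZ at 0.67 and 0.66. LD and FY, which both act in the autonomous pathway, correlated at -0.43. These correlations over 6 arrays of 2 genotypes hold the array shift as well as the genotype and are descriptions only.

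Few other genes of these pathways could be read. Of 88 genes in 10 lists of photoperiod, clock, light, autonomous, vernalization and meristem identity genes and of partners of FD and FY, 4 had a named probe set, and 0 passed in either direction. In the photoperiod and florigen list ATC, a relative of TFL1 that delays flowering, read 4.97, 4.59 and 5.75 in esd7-1 and 4.84, 4.49 and 4.30 in Ler. Its difference of 0.56 had an interval from -0.17 to 1.29 in limma and an adjusted p of 0.846. The high-control pair gave 1.26 and the remaining 4 arrays 0.21. AT1G69570 of the same list differed by 0.20. In the list of MADS flowering regulators 2 of 7 had a named probe set, AGL24 and AGL18. AGL24, a MADS-box promoter of flowering, read 4.56, 4.66 and 4.72 in esd7-1 and 4.5, 4.45 and 4.44 in Ler. All 3 mutant values lay above Ler, as in 5.64% of all probe sets, and the difference of 0.18 had an adjusted p of 0.846 in limma. AGL18 differed by 0.06. The clock, photoreceptor, AP2-type, other autonomous, FRIGIDA and vernalization, SPL and meristem identity, 3′ end processing and 14-3-3 lists had no gene with a named probe set. Unnamed probe sets were not searched for them.

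The annotation named 4 more genes tied to flowering or light, chosen for their names after the lists proved sparse. PHYTOCHROME-DEPENDENT LATE-FLOWERING (AT1G72390) differed by 0.18 on its brighter probe set, of 2, where Ler replicate 2 read 5.56 and the other 5 arrays 6.09 to 6.2, and by 0.17 on the dimmer one. NDX (AT4G03090), a homeodomain protein known to act at the FLC locus, read 3.79, 3.62 and 4.18 in esd7-1 and 3.56, 3.60 and 3.60 in Ler. All 3 mutant values of NDX lay above Ler too, and its difference of 0.28 had an adjusted p of 0.846 in limma. Its signal was dim, at percentile 20.9 of mean level. The high-control pair gave 0.58 and the remaining 4 arrays 0.125. DNF, a gene of day-length response, and FHL, which helps bring phytochrome A into the nucleus, differed by 0.02 and -0.07 at dim signals.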

How the data were processed

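The authors deposited log2 expression values per probe set with 2 decimals, and RMA and limma stand in the submitters' processing notes with no version. RMA normalizes arrays against each other, so a general shift is removed, and values near background are compressed. The sources used here give no other setting of it. The table held 22810 probe sets, and the 64 controls among them were not tested. Probe sets were named from the platform annotation supplied for the array, updated through gene identifiers to the RefSeq table of TAIR10.1. It named 13513 probe sets with 1 gene, of which 13436 matched that table, and 503 with several. Another 8730 were unnamed here. No sequence was used.

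Groups and replicate numbers came from the sample titles. Each probe set was fitted in limma 3.58.1 under R 4.3.3 with genotype as its only term and a two-sided test, adjusted by Benjamini-Hochberg over all 22746 probe sets, with a threshold of 0.05. The number of arrays limits the precision. On simulated data for esd7-1 against Ler, with 200 of 22746 probe sets changed and independent noise, limma recovered 57.3% of those changed 2-fold and 87.7% of those changed 4-fold.

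Genes named are the 6 members, up to 2 per flowering list with the largest absolute difference, and the 2 most like each member. The bZIP genes and the 4 genes named from the annotation were added later. High-control arrays are those whose mean of 27 bacterial poly-A control probe sets exceeded the median array by over 0.5. Members, lists, tests and settings were chosen with earlier results of these data known. The alternatives were a replicate block, median centring or another quantile normalization, a trended and robust variance, a filter at percentile 40 of mean level, array weights, omission of each array, a term for the high-control arrays or their omission, and averaging the probe sets of a gene.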

Additional observations from a re-analysis of the deposited data

How the results depend on the processing

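Array weights raised the count of called probe sets from 0 to 33. A term for the high-control arrays gave 4 calls, and their omission also gave 4. Omitting 1 array at a time gave 0 to 1 calls, the 1 being without esd7-1 replicate 3. None of these calls was one of the 6 genes. Over 89 recomputed differences of the 6 genes 0 passed in limma, where the smallest adjusted p was 0.193. FD, SMZ and LD kept their sign in every setting, with ranges of 0.09 to 0.25, -0.50 to -0.02 and -0.52 to -0.21. The replicate block, trended and robust variance, filter, term for the high-control arrays and averaging of probe sets leave each retained difference unchanged by construction. A sign that held under these adds no support. FD had no value under the filter on dim probe sets, since it lay below that level. With the replicate block LD was at -0.40 (limma adjusted p of 0.895), and the block changed no call among the 6 genes. Deviations of same-numbered arrays from their genotype means correlated at 0.54 for replicate 1, whose arrays also share a high ribosomal RNA control. For the others they correlated at -0.41 and -0.60. The high-control arrays carry different replicate numbers, which by itself gives such signs, so these values cannot decide whether the numbers mark pairs. The main test did not take them as pairs. The sign turned in 8 of the 89, which include values that could not turn, and the cause was not tested. FY was -0.045 without the high-control arrays. GI, at -0.01 in the test reported, was 0.067 after another quantile normalization, 0.0079 with array weights and 0.015 without the high-control arrays, and ranged from -0.072 to 0.068 when arrays were omitted singly. SNZ, at 0.01, ranged from -0.015 to 0.04 in the same way and was exactly 0 in 3 settings. Averaging probe sets changed nothing, since the annotation named 1 for each gene. Omitting 1 array moved several differences by over 1.5 times. FD was 0.11 without Ler replicate 3 and 0.25 without Ler replicate 2. SMZ was -0.02 without esd7-1 replicate 1, -0.11 without Ler replicate 2 and -0.42 without esd7-1 replicate 3. LD was -0.21 without esd7-1 replicate 3. FY was 0.073 without esd7-1 replicate 3 and 0.035 without Ler replicate 2. Dim signal limits what can be read for FD, at percentile 22.9 of mean level.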
